A study of Homo sapiens with 9 samples.

Results

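MDA-MB-231 cells given MILIP siRNA1 were compared with the same cells given a control siRNA, to show which transcripts differed with this siRNA and where it differed from MILIP siRNA2. The comparison took 6 of the study's 9 libraries, 3 with siRNA1 and 3 with the control siRNA, and its members were the 15345 of 60612 listed genes with enough counts for a test. The 3 libraries of cells given MILIP siRNA2 served to find what was particular to siRNA1. MDA-MB-231 is an established human line of triple-negative breast cancer, with the traits of basal and mesenchymal cells. Cells of all 3 groups were of this line, were transfected with a lipid reagent and were harvested 48 hours later, and no untransfected cells entered the comparison. The treatment text speaks of PLANE siRNAs, whereas the treatment labels and the design text name MILIP. The labels give no separate cultures for the libraries of a group, so each p-value reflects the spread among these libraries, and that spread may be technical.

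An siRNA is a short duplex RNA, 1 strand of which guides an Argonaute protein to transcripts that it pairs with along its length, and these are cut. The same guide can lower many other transcripts that pair only with its seed, bases 2 to 8 from the 5′ end, most often in 3′ UTRs, which is also how microRNAs find their targets. MILIP is a long noncoding RNA, and a pair of siRNAs against 1 RNA share their intended target and need not share their seeds.

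Each library held 15281220 to 19759371 gene counts, so that 3 counts stand for 0.152 to 0.196 CPM. Levels are given as counts per 1000000 (CPM) after TMM scaling, fold changes are log2 values of edgeR's quasi-likelihood fit, SDs are over 3 libraries, and a gene is called at a Benjamini-Hochberg adjusted p below 0.05. MILIP (ENSG00000265688, listed as MAFG-DT, chr17:81927829-81930753 of GRCh38, plus strand) was at 8.21, 8.32 and 8.70 CPM in the control libraries and at 1.20, 0.618 and 1.90 CPM with siRNA1. All siRNA1 libraries lay below all control libraries, with a fold change of -2.74 (SE 0.256, adjusted p = 2.51e-09). An exact two-sided permutation test gave p = 0.1, the smallest possible with 3 against 3 libraries. With siRNA2 MILIP was at 0.534, 0.965 and 0.349 CPM, lower than with siRNA1 (siRNA1 against siRNA2 0.99, adjusted p = 0.0264).

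Of the 15345 genes tested, 7738 (50.4%) were called, 3852 (25.1%) higher and 3886 (25.3%) lower with siRNA1 than with the control siRNA. At a fold change of at least 2, 858 (5.59%) were higher and 654 (4.26%) lower. All 3 siRNA1 libraries lay above all control libraries for 27.3% of genes and below them for 26.5%. They lay above the other 6 libraries for 15.9% of genes and below them for 15.7%, so such a separation is common. Against siRNA2, 9271 genes (60.4%) were called. A gene was taken as set apart with siRNA1 if it was called against both other groups with the same sign. This held for 2163 genes (14.1%) that were higher and 2278 (14.8%) that were lower, and for 354 (2.31%) and 407 (2.65%) at 2-fold or more in both contrasts. Both contrasts use the same siRNA1 libraries, so these counts select genes and are not a test of agreement. Of the other genes called against control, 1150 higher and 1003 lower genes had no called difference from siRNA2, and 539 and 605 had moved further in the same direction with siRNA2.

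The 3′ UTRs of genes that were lower with siRNA1 often held the 7-base word AATTCCA, which MILIP also holds. In a search on the transcript strand of 12580 annotated 3′ UTRs, the genes holding it had the lowest t of 16234 words of this length, and ATTCCAA, the form 1 base along, came next. MILIP holds both, and they overlap in 6 bases. The word was chosen on these same fold changes, so every value given by word is a description without a test. No siRNA sequence was at hand, and whether siRNA1 pairs with the word was not tested. The word is printed here as it stands in MILIP and in the 3′ UTRs of genes that fell far, and in a pair of sites with high likeness to MILIP, because the later results refer back to it. Each line gives a 21-base window on the transcript strand, 5′ to 3′, with GRCh38 coordinates, and capitals mark the word (its form in GALNT3).
MILIP, exon 2 (chr17:81930347-81930367, plus strand): ctggagtcagggcAATTCCAa
TWF1 (chr12:43793995-43794015, minus strand): caattatactctaAATTCCAc
TXNDC5 (chr6:7882334-7882354, minus strand): ggtaggcatggaaAATTCCAc
FADS1, nearest the stop codon (chr11:61802049-61802069, minus strand): gatttaacactaaAATTCCAc
FADS1, farther on (chr11:61799799-61799819, minus strand): tcatggcagcatgAATTCCAa
LCP1 (chr13:46126369-46126389, minus strand): ttactggacaaagAATTCCAa
AXL (chr19:41260237-41260257, plus strand): tctaaggacctgaAATTCCAa
TTLL12 (chr22:43167043-43167063, minus strand): gagaaaaatgtaaAATTCCAg
HBEGF (chr5:140333968-140333988, minus strand): agaatgccggttaAATTCCAt
CDCP1, nearest the stop codon (chr3:45085443-45085463, minus strand): attgaaaatgatgAATTCCAa
CDCP1, next (chr3:45085272-45085292, minus strand): ggacaacagttccAATTCCAa
CDCP1, farthest (chr3:45084664-45084684, minus strand): tcctggggatcagAATTCCAa
GALNT3, form only (chr2:165748666-165748686, minus strand): gctaaatgtaacttATTCCAA
SUMF2 (chr7:56079672-56079692, plus strand): ttgcaaacagcgcAATTCCAa
NAA15 (chr4:139389456-139389476, plus strand): ctggtgtcagggaAATTCCAt
Across 2608 copies of the word in 2108 genes, a median of 10 of the 21 bases were the same as in MILIP at the same place, 7 of them being the word itself. The most alike was NAA15, a subunit of an acetyltransferase that acts on new proteins, with 18 of 21 bases. NAA15 was at 89.8, 78.7 and 81.6 CPM in the controls and 71.4, 83.9 and 68.2 CPM with siRNA1, ranges that overlapped (fold change -0.16, adjusted p = 0.079). SUMF2, a paralog of the sulfatase-modifying factor of the endoplasmic reticulum, shared 16 bases and was at 146, 145 and 154 CPM against 45.9, 42.5 and 46.5 CPM, with all siRNA1 libraries below all others (-1.72, adjusted p = 8.87e-17). GRINA, a membrane protein of the TMBIM family, also shared 16 bases and was at 85.6, 85.3 and 82.3 CPM in the controls, 41.2, 34.4 and 46.1 CPM under siRNA1 and 179, 164 and 156 CPM with siRNA2, with siRNA1 lowest and siRNA2 highest (-1.06, adjusted p = 1.14e-10). These are the 3 genes with at least 16 shared bases, a limit set after their values were seen.

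The fold changes with siRNA1 went down with the number of copies of the word in the 3′ UTR. The median fold change was 0.038 in 10470 genes with 0 copies, -0.199 in 1732 with 1, -0.311 in 285 with 2 and -0.471 in 93 with 3 or more, and 24.4%, 45.3%, 51.6% and 60.2% of these genes were called lower. In the same groups of genes the median fold change with siRNA2 was 0.004, -0.026, -0.036 and 0.117. The word stands in 16.8% of these 3′ UTRs and the word or its form in 23.6%. Longer UTRs hold more copies, with a median UTR of 1111.5 bases at 0 copies and 6605 bases at 3 or more. When genes were put in 4 equal groups by UTR length, shortest to longest, the median was -0.336, -0.264, -0.240 and -0.165 with the word or its form, and 0.070, 0.041, 0.043 and 0.037 with neither.

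**Figure D1:**
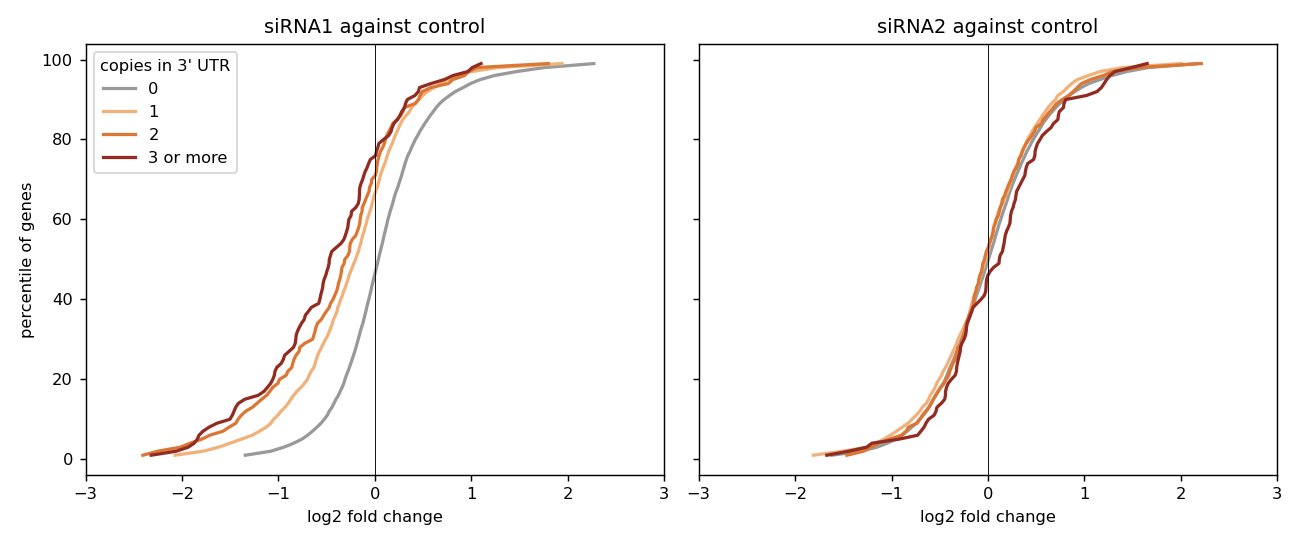
Fold changes of genes by copies of AATTCCA in the 3′ UTR, as the log2 fold change (x axis) at each percentile of genes (y axis, 1 to 99), for siRNA1 (left) and siRNA2 (right) against control. With siRNA1 the curves move left from 0 copies (grey, median 0.038) to 3 or more (dark red, median -0.471), and with siRNA2 their medians lie between -0.036 and 0.117.

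The place of the word went with the size of the fold change. Genes with the word in the coding part and in neither UTR had a median of -0.119 (1086 genes), those with it in the 5′ UTR alone -0.038 (79 genes), and those with it nowhere in the transcript 0.071 (8436 genes). Among genes with 1 copy in the 3′ UTR, the median was -0.369 where the next base was A, so that both words were present in 8 bases (475 genes), and -0.153 where it was not (1257 genes). Genes with the form alone had a median of -0.161 (859 genes). Copies in the first, middle and last parts of the UTR had medians of -0.233, -0.184 and -0.176. By likeness to the MILIP window, genes with 1 copy had medians of -0.184 at 7 to 9 shared bases, -0.197 at 10 to 11, -0.217 at 12 to 13 and -0.275 at 14 or more (42 genes). With siRNA2 the medians of the same groups went down as well, at -0.004, -0.027, -0.061 and -0.082. For siRNA1 against siRNA2 they were -0.196, -0.14, -0.236 and -0.152, with no steady order. The word or its form stood in 62.3% of 525 genes that were lower by at least 2-fold, in 20.2% of 5599 not called and in 14.3% of 3441 that were higher. Among genes named below that rose, ALPP, DIO2, CDH1, INHBA, TNFRSF9, TNFSF15, PSG4 and AGO4 hold the word.

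The 12 genes that fell farthest below both other groups were TWF1, GALNT3, TXNDC5, FADS1, TWF1P1, C3orf70, STEAP1, LCP1, COL4A4, NIBAN1, TTLL12 and CDCP1, and 10 of these 12 hold the word or its form in the 3′ UTR. LCP1, the actin-bundling protein L-plastin, was at 816, 805 and 774 CPM in the controls, 79.6, 80.2 and 73.7 CPM under siRNA1 and 508, 500.4 and 499.97 CPM with siRNA2. Its fold change was -3.36 (SE 0.0584, adjusted p = 3.99e-23) against control and -2.69 against siRNA2. FADS1, the delta-5 desaturase of polyunsaturated fatty acids, was at 325, 332 and 289.7 CPM in the controls, 36.9, 36.2 and 35.0 CPM under siRNA1 and 426, 444 and 451 CPM with siRNA2. Its siRNA1 libraries lay far below the other 6, and the fold change was -3.13 (SE 0.0664, adjusted p = 1.5e-21).

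CDCP1, a membrane protein that Src-family kinases phosphorylate, has 3 copies of the word and was at 506, 526 and 432 CPM in the controls, 87.3, 89.7 and 90.1 CPM under siRNA1 and 835, 803 and 803 CPM with siRNA2 (-2.45, adjusted p = 2.54e-19). Control and siRNA2 libraries of CDCP1 did not overlap either, so that siRNA1 lay lowest and siRNA2 highest. TTLL12, of the tubulin ligase-like family, was at 107, 112 and 115 CPM in the controls, 14.3, 12.97 and 12.01 CPM under siRNA1 and 75.9, 73.2 and 71.1 CPM with siRNA2 (-3.09, adjusted p = 1.1e-19). NIBAN1, a stress-induced protein, was at 154, 154 and 129 CPM in the controls, 23.4, 24.4 and 24.6 CPM under siRNA1 and 135, 142 and 142 CPM with siRNA2 (-2.59, adjusted p = 1.02e-18). For NIBAN1 the control and siRNA2 libraries overlapped and all siRNA1 libraries lay below them. STEAP1, a metalloreductase-family membrane protein that holds neither word, was at 13.9, 13.5 and 14.3 CPM in the controls, 1.52, 2.98 and 1.54 CPM under siRNA1 and 13.9, 14.3 and 14.3 CPM with siRNA2, with the same pattern of groups (-2.78, adjusted p = 9.84e-13). COL4A4, a chain of type IV collagen, fell from 4.31 ± 0.471 to 0.731 ± 0.218 CPM, and C3orf70 from 1.19 ± 0.288 to 0.125 ± 0.109 CPM, the last with 15 to 22 counts in each control library and 0 to 4 with siRNA1. TWF1, a twinfilin that caps and sequesters actin, was at 98.5, 79.5 and 87.6 CPM in the controls and 8.74, 9.83 and 7.24 CPM with siRNA1, and the pseudogene TWF1P1 went with it (7.97, 7.26 and 8.46 against 0.253, 0.898 and 0.719 CPM). Reads of TWF1P1 may belong to TWF1, which was not tested.

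The 12 genes that rose farthest above both other groups were SLC6A19, TNFSF18, TREM2, DUSP9, ALPP, RASGRP2, CALML5, STYXL2, DIO2, CDH3, INHBB and VRTN, and 2 of these 12 hold the word or its form. INHBB, the beta B subunit of activins and inhibins, was the one among them with the highest level. It was at 2.22, 2.58 and 2.70 CPM in the controls, 37.6, 35.7 and 40.3 CPM under siRNA1 and 1.23, 1.93 and 1.34 CPM with siRNA2, a fold change of 3.92 (SE 0.134, adjusted p = 1.77e-17) against control and 4.64 against siRNA2. The siRNA1 libraries of INHBB lay far above the other 6. INHBA, the beta A subunit, and FST, the activin-binding protein follistatin, were looked up after that value was seen. INHBA was at 15.0 ± 0.898 CPM in the controls, 29.03 ± 1.89 CPM under siRNA1 and 24.5 ± 1.88 CPM with siRNA2, and FST at 23.6 ± 1.11, 32.7 ± 0.874 and 17.1 ± 2.18 CPM.

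CDH3, which encodes P-cadherin of basal epithelia, rose from 0.309, 0.66 and 0.353 CPM to 7.03, 6.29 and 7.54 CPM, with 0.587, 0.254 and 0.291 CPM in the siRNA2 libraries (3.98, adjusted p = 2.37e-11). ALPP, the placental alkaline phosphatase, was at 0.185, 0.396 and 0.0588 CPM in the controls, 13.2, 9.21 and 15.2 CPM under siRNA1 and 0.748, 0.863 and 0.99 CPM with siRNA2, and may share reads with its close paralogs. CDH3 and ALPP started below 1 CPM and the 9 others from few counts, so the size of all these rises is uncertain. No fold is given for the 9 others. RASGRP2, an exchange factor for Rap GTPases, had 0, 2 and 5 counts in control libraries and 86, 65 and 120 with siRNA1. CALML5, a calmodulin-like protein of skin, had 4, 0 and 1 and then 56, 45 and 71 counts, and DIO2, a deiodinase that activates thyroid hormone, had 1, 2 and 3 and then 38, 49 and 46. For DUSP9, a MAP kinase phosphatase, the counts were 1, 1 and 2 in control and 50, 61 and 79 in siRNA1 libraries. VRTN had 2, 0 and 2 counts in control libraries and 27, 13 and 24 with siRNA1. SLC6A19, TREM2 and STYXL2 had 0 counts in every control library, where 3 counts would be 0.174 to 0.196 CPM, and were at 1.96, 1.63 and 1.39 CPM (SLC6A19, an amino acid transporter), 1.14, 1.12 and 1.23 CPM (TREM2, a receptor of macrophages) and 1.33, 1.40 and 1.33 CPM (STYXL2) in the siRNA1 libraries. All siRNA1 libraries lay above the other 6 for each of the 12 genes, as the choice of these genes required.

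**Figure D2:**
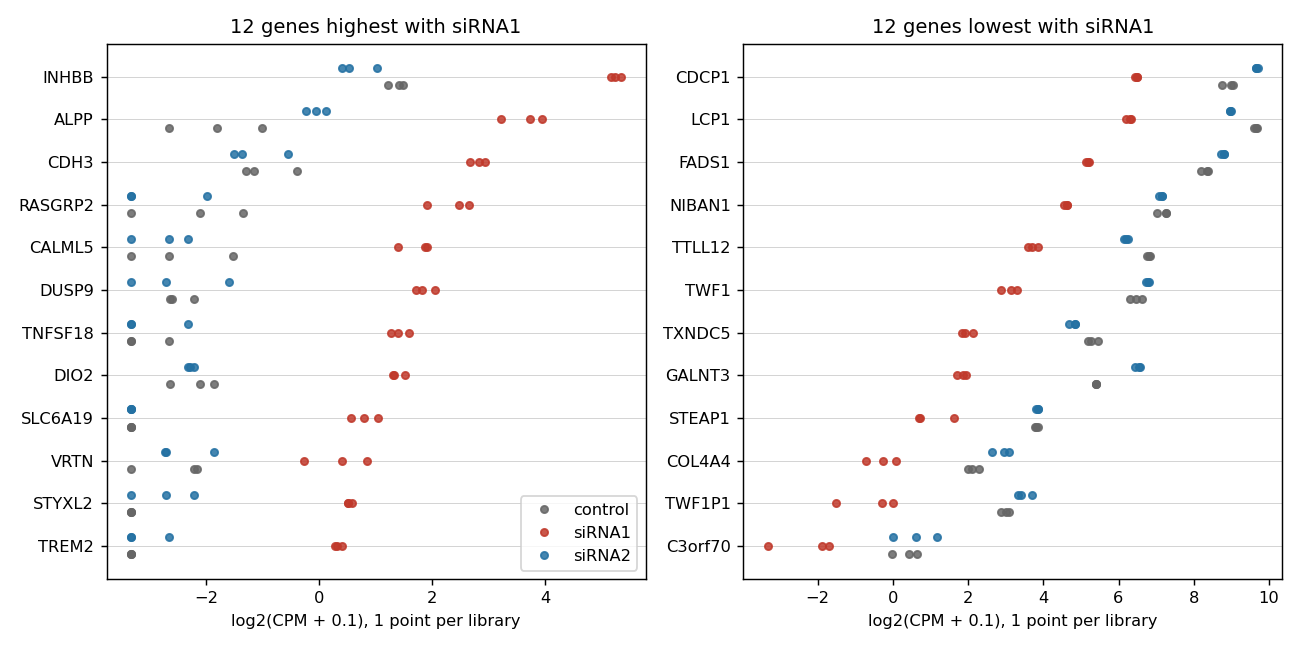
Levels of the 12 genes farthest above (left) and below (right) both other groups, as log2(CPM + 0.1) with 1 point per library, for control (grey), siRNA1 (red) and siRNA2 (blue). The 3 siRNA1 points stand apart from the other 6 in every row, and LCP1 (mean 798 CPM in control and 77.8 CPM in siRNA1 libraries) is the most abundant of them.

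Among abundant genes, those set apart were mostly lower. With a mean of at least 100 CPM where the gene was higher, and at least 2-fold in both contrasts, 62 genes were lower and 15 higher, and 45 of the 62 and 2 of the 15 hold the word or its form. This limit on level was set after the values were seen. The lower genes included MMP14, the membrane-bound collagenase MT1-MMP, at 835, 804 and 835 CPM in the controls, 199, 181 and 199 CPM under siRNA1 and 1911, 1615 and 1612 CPM with siRNA2. Groups did not overlap for MMP14, with siRNA1 lowest and siRNA2 highest (-2.10, adjusted p = 2.21e-18). The death-associated protein DAP was at 427 ± 19.2, 91.5 ± 4.64 and 354 ± 17.5 CPM, and FSTL1, a secreted follistatin-like glycoprotein, at 448 ± 4.69, 122 ± 0.758 and 588 ± 22.5 CPM. The heparan sulfate proteoglycan SDC1 fell from 248 ± 10.3 to 58.6 ± 4.34 CPM and the matrix protein TNC from 260.4 ± 20.6 to 75.2 ± 2.94 CPM, and neither holds the word or its form. TFRC, the transferrin receptor, STAT3, a transcription factor of cytokine signalling, and NOTCH1 fell with fold changes of -1.01, -1.07 and -1.22.

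The abundant lower genes also held SMC1A, a core subunit of cohesin, at 325, 314 and 298 CPM in the controls, 93.7, 93.7 and 88.0 CPM under siRNA1 and 289, 303 and 286 CPM with siRNA2 (-1.77, adjusted p = 1.1e-17). The cohesin subunit STAG2 was at 114 ± 4.36, 42.0 ± 6.81 and 119.6 ± 1.33 CPM, and WAPL, which releases cohesin from chromatin, at 121 ± 4.66, 52.7 ± 4.31 and 122 ± 3.40 CPM. In all 3 genes the siRNA1 libraries lay below the other 6, as they did for 15.7% of all tested genes, and all 3 hold the word. They were picked out after their values were seen, and no list of cohesin genes was counted.

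The 15 abundant genes that rose included ASS1, the arginine-making enzyme argininosuccinate synthase, at 56.1, 58.2 and 53.6 CPM in the controls, 191, 171 and 185 CPM under siRNA1 and 66.3, 61.1 and 64.1 CPM with siRNA2 (1.71, adjusted p = 1.7e-16). The siRNA1 libraries of ASS1 were near each other and above the other 6. CTDSPL, a small phosphatase, was at 58.5 ± 3.94 CPM in the controls, 156 ± 2.58 CPM under siRNA1 and 13.5 ± 0.395 CPM with siRNA2, so that the siRNAs moved it in opposite directions. GPRC5A, an orphan receptor induced by retinoic acid, did likewise (168 ± 9.11, 337 ± 13.5 and 78.4 ± 2.58 CPM), as did TFAP2C, an AP-2 transcription factor (81.2 ± 1.71, 172 ± 0.984 and 51.9 ± 0.534 CPM). The other abundant genes that rose were KISS1, HCFC1R1, FAM20C, AMOTL2, SPRY4, PAWR, NACC2, MYO18A, P3H2, NMT2 and ANKRD1, with fold changes from 1.00 to 1.53.

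Gene lists are described by the count of called members and the median fold change, beside 25.1% higher, 25.3% lower and a median of 0.003 over all tested genes. Counts and medians cover members with enough counts, and a member low in the controls could pass that filter through a group where it was high. No list was tested as a set, and a median with siRNA2 is given as that siRNA's own value, since both share the control libraries. Among receptors and ligands of the EGF family, which drive growth through MAP kinases, 7 of 14 were lower and 1 higher (median -0.215 with siRNA1 and 0.005 with siRNA2). HBEGF, a membrane-bound ligand, was at 279.6, 270.2 and 288 CPM in the controls, 67.6, 64.1 and 66.6 CPM under siRNA1 and 430.4, 383 and 374 CPM with siRNA2 (-2.08, SE 0.0638, adjusted p = 2.21e-18). The siRNA1 libraries of HBEGF lay lowest and those of siRNA2 highest, with no overlap of groups. EGFR, the receptor of HBEGF, was at 548, 552 and 391 CPM in the controls and 225, 249 and 219 CPM with siRNA1, with control library 3 below the other controls and above every siRNA1 library (-1.10, adjusted p = 1.48e-10). EGFR fell with siRNA2 as well, to 287 ± 11.2 CPM. AREG, a further ligand, fell from 3.69 ± 0.88 to 1.40 ± 0.137 CPM, and NRG1, a ligand of ERBB3 and ERBB4, was the member that rose (100.4 ± 2.95 to 176 ± 5.02 CPM, and 72.9 ± 1.08 CPM with siRNA2).

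Inhibitors that act downstream of these receptors moved in both directions. Of 19 MAP kinase phosphatases and Sprouty-type inhibitors 7 were higher and 8 lower (median -0.041). Among the higher ones DUSP8 and DUSP9 were below 1 CPM in the controls and could pass the count filter through groups where they were high. SPRY4, a feedback inhibitor of receptor signalling, was at 191, 190.4 and 174 CPM in the controls, 405, 418 and 407 CPM under siRNA1 and 147, 142 and 138 CPM with siRNA2 (1.15, adjusted p = 1.52e-14). SPRY1, of the same family, was at 9.39, 8.92 and 9.05 CPM in the controls, 29.1, 32.9 and 32.4 CPM under siRNA1 and 6.51, 8.48 and 7.34 CPM with siRNA2 (1.79, adjusted p = 6.56e-13). For both Sprouty genes the siRNA1 libraries lay above all others. DUSP1, which dephosphorylates MAP kinases in the nucleus, rose from 12.5 ± 1.16 to 42.1 ± 1.01 CPM and to 30.9 ± 1.64 CPM with siRNA2, and DUSP8 from 0.472 ± 0.102 to 1.86 ± 0.166 CPM. DUSP7, of the same family, and RASA2, an activator of Ras GTP hydrolysis, fell (-1.11 and -1.15).

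The cytokine list of this line went opposite ways with the siRNAs at several members. Of 29 tested cytokines and NF-kappa-B targets 10 were higher and 9 lower with siRNA1, and the median was 0.106 with siRNA1 and 1.020 with siRNA2. CSF3, which encodes the granulocyte factor G-CSF, was at 776, 801 and 837 CPM in the controls, 240.4, 204 and 223 CPM under siRNA1 and 3448, 2723 and 2819.6 CPM with siRNA2. Its fold change was -1.86 (SE 0.0741, adjusted p = 2.53e-16) against control and -3.75 (adjusted p = 7.96e-22) against siRNA2, with no overlap of the 3 groups. The neutrophil chemokine CXCL3 was at 62.9, 61.2 and 64.2 CPM in the controls, 20.5, 19.6 and 19.1 CPM under siRNA1 and 204, 178 and 172 CPM with siRNA2 (-1.67, adjusted p = 7.13e-15), in the same order of groups. CXCL2 (-0.48), IL1B (-0.62) and PTGS2 (-0.79), the inducible cyclooxygenase, were lower with siRNA1 as well, and 9 members were set apart lower. CSF1, the macrophage factor, rose from 275 ± 12.2 to 655 ± 25.6 CPM with siRNA1 and to 1346 ± 101 CPM with siRNA2. NFKB1, a subunit of the factor itself, fell (-1.04, adjusted p = 4.52e-12) and holds the word, whereas NFKB2 rose (0.57).

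Among ligands and receptors of the TNF superfamily 9 of 25 were higher and 4 lower (median 0.099, and 0.589 with siRNA2). LTB, which encodes lymphotoxin beta, was at 2.66, 1.12 and 1.82 CPM in the controls, 14.9, 14.3 and 21.6 CPM under siRNA1 and 1.50, 1.98 and 1.05 CPM with siRNA2 (3.17, adjusted p = 9.12e-12). Its siRNA1 libraries lay above all others. TNFSF18, the ligand of GITR, had 0, 0 and 1 counts in the controls, 46, 45 and 45 under siRNA1 and 0, 2 and 0 under siRNA2. TNFRSF9, the receptor 4-1BB, rose from 0.336 ± 0.267 to 2.15 ± 0.321 CPM and to 1.22 ± 0.413 CPM with siRNA2, and TNFSF15 from 1.15 ± 0.277 to 2.99 ± 0.157 CPM and, with siRNA2, to 14.1 ± 0.278 CPM. TNFSF18 and TNFRSF9 were low in the controls and could pass the count filter through groups where they were high. The count of higher members is therefore no evidence for the list.

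**Figure D3:**
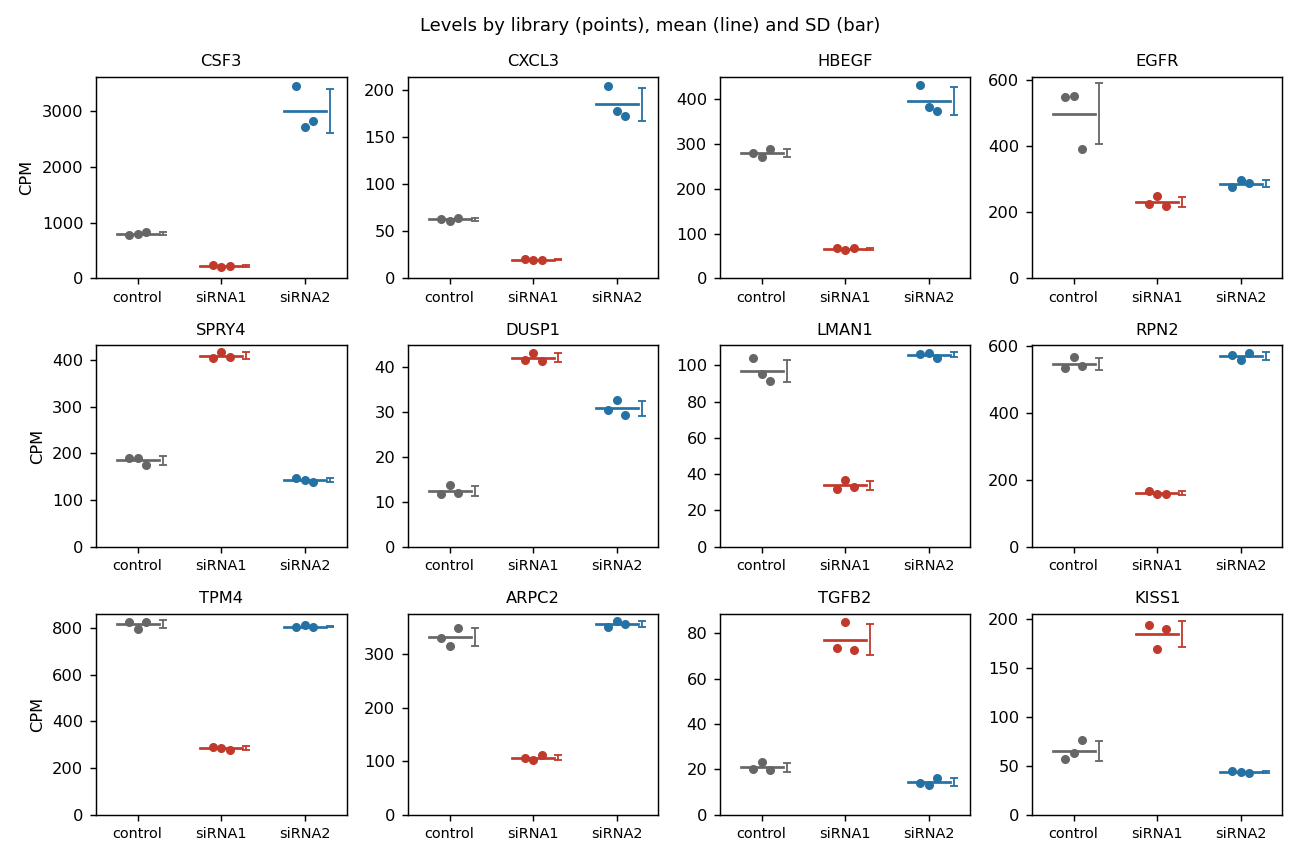
CPM (y axis, from 0) of 12 genes in control, siRNA1 and siRNA2 libraries, with 1 point per library, a line at the group mean and a bar for its SD (n = 3). CSF3, CXCL3 and HBEGF are lowest with siRNA1 and highest with siRNA2, SPRY4, TGFB2 and KISS1 are highest with siRNA1, and LMAN1, RPN2, TPM4 and ARPC2 are low with siRNA1 alone.

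Of 25 tested genes of disulfide exchange in the endoplasmic reticulum, where secreted proteins fold, 11 were lower and 3 higher (median -0.127, and 0.185 with siRNA2). TXNDC5, a disulfide isomerase, was at 38.2, 44.0 and 36.4 CPM in the controls, 4.31, 3.48 and 3.70 CPM under siRNA1 and 28.6, 28.4 and 25.4 CPM with siRNA2. TMX1, a membrane-bound member of the family, was at 89.3, 79.0 and 84.0 CPM in the controls, 22.2, 24.7 and 22.8 CPM under siRNA1 and 113, 111 and 112 CPM with siRNA2 (-1.85, adjusted p = 2.1e-16). For both the siRNA1 libraries lay below the other 6, and siRNA2 was below control for TXNDC5 and above it for TMX1. SELENOM rose (0.98, adjusted p = 4.28e-06), and by more with siRNA2 (1.81). VKORC1L1 fell (-0.89), also by more with siRNA2 (-1.52). DNAJC10, a reductase of this compartment, fell (-0.84), while the main isomerase P4HB (-0.06, adjusted p = 0.391) and PDIA3 (-0.04, adjusted p = 0.537) did not pass. RPN2, a subunit of the oligosaccharyltransferase that puts N-glycans on new proteins, was at 535, 567 and 541 CPM in the controls, 167, 156 and 158 CPM under siRNA1 and 573, 559 and 580.3 CPM with siRNA2 (-1.77, adjusted p = 2.21e-18), and holds neither word in the annotated UTR.

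Of 38 genes of vesicle coats and cargo receptors 14 were higher and 8 lower (median 0.036, and 0.232 with siRNA2). The cargo receptor LMAN1 was at 104, 95.3 and 91.6 CPM in the controls, 31.9, 36.6 and 32.9 CPM under siRNA1 and 106, 107 and 104 CPM with siRNA2 (-1.52, adjusted p = 8.2e-15). LMAN1 was below the other 6 in every siRNA1 library. Its partner MCFD2, with which it carries coagulation factors, fell too (-0.53, adjusted p = 2.33e-08). Of the KDEL receptors, which return chaperones to the endoplasmic reticulum, KDELR2 (-1.01) and KDELR3 (-1.53) fell and KDELR1 rose (0.16). The coat subunits SEC24A (0.65), COPG1 (0.48) and ARF4 (0.46) were higher. Of 20 genes of mucin-type O-glycosylation, a chain of sugars begun in the Golgi, 6 were lower and 4 higher (median -0.058, and 0.457 with siRNA2). GALNT3, an enzyme that starts it, was at 42.3, 42.1 and 42.0 CPM in the controls and 3.55, 3.76 and 3.13 CPM with siRNA1, and at 93.0, 86.1 and 94.4 CPM with siRNA2. GCNT1, which branches the chain, and ST3GAL1, which caps it, fell (-1.17 and -0.85). ST6GALNAC2 was called higher (1.00, adjusted p = 0.03) but lost the call with DESeq2 (adjusted p = 0.0536) and without control library 1 or 3 or siRNA1 library 1 or 3 (adjusted p = 0.0639 to 0.127).

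Of 24 genes of fatty acid synthesis, desaturation and elongation 14 were lower and 6 higher (median -0.240, and 0.295 with siRNA2). After FADS1, the members with the largest falls were ACSL4, which activates arachidonic acid (112 ± 5.75 to 64.2 ± 8.97 CPM, and 156 ± 5.71 CPM with siRNA2), and ACACB, an acetyl-CoA carboxylase (13.7 ± 2.38 to 8.11 ± 0.339 CPM). FADS2, the delta-6 desaturase that lies beside FADS1 and overlaps it, was lower by less (-0.52), as were ELOVL6 (-0.51), FASN (-0.15) and SCD (-0.15). HACD2, a dehydratase of the elongation cycle, rose from 80.2 ± 3.60 to 124 ± 10.3 CPM.

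Of 42 genes of actin assembly and turnover 17 were higher and 14 lower (median -0.069, and 0.132 with siRNA2). ARPC2, a subunit of the Arp2/3 complex that nucleates branched filaments, was at 329.5, 314 and 348 CPM in the controls, 106, 103 and 111 CPM under siRNA1 and 349.8, 362 and 355 CPM with siRNA2 (-1.63, adjusted p = 3.54e-17). CAPZA2, a capping protein subunit, fell from 62.3 ± 3.48 to 30.2 ± 1.48 CPM and DIAPH2, a formin, from 5.81 ± 0.467 to 2.94 ± 0.536 CPM. TPM4, a tropomyosin that coats filaments, was at 826, 795 and 826 CPM in the controls, 292, 286 and 279 CPM under siRNA1 and 805, 811 and 803 CPM with siRNA2 (-1.51, adjusted p = 1.35e-17). Control and siRNA2 libraries of ARPC2 and of TPM4 lay close together and the siRNA1 libraries well below. TPM3, another tropomyosin, fell from 612 ± 20.3 to 259 ± 4.04 CPM, and ARPC2, CAPZA2, DIAPH2, TPM3 and TPM4 hold the word. Actin itself was split, with ACTG1 higher (3612 ± 109 to 5427 ± 352 CPM, 0.59) and ACTB lower (5521 ± 266 to 4215 ± 308 CPM, -0.39).

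Genes of adhesion and matrix were lower in part. Of 25 integrins and laminins 9 were lower and 5 higher (median -0.039, and 0.390 with siRNA2). LAMA3 (-0.82) and LAMB3 (-0.87), which encode laminin chains of epithelial basement membranes, were lower. ITGB4, an integrin subunit of epithelial cells that binds laminin, was higher (508 ± 29.1 to 1108 ± 62.5 CPM, 1.13, adjusted p = 2.1e-14), and ITGA6, its partner, was lower (-0.68). In the siRNA2 libraries ITGB4 was also above the controls, at 868, 843 and 880 CPM. LAMA2 was called higher (0.94, adjusted p = 0.0341) and lost the call without control library 1 or 2 or siRNA1 library 1 or 2 (adjusted p = 0.0635 to 0.222). The call of LAMA2 was also lost with limma on log2(FPKM + 1) (adjusted p = 0.0863) and on log2(FPKM + 0.1) (adjusted p = 0.0547).

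Markers of the line also moved. All 12 basal and mesenchymal markers were tested, with summed levels of 8888 to 9256 CPM in control libraries, 7962 to 8354 CPM with siRNA1 and 8315 to 8421 CPM with siRNA2. Of these 3 were higher and 6 lower with siRNA1. In bulk RNA, a change in the share of cells and a change of RNA per cell cannot be told apart. CAV1, the coat protein of caveolae, was at 321, 333 and 332 CPM in the controls, 107, 109 and 111 CPM under siRNA1 and 261, 288 and 292 CPM with siRNA2 (-1.59, adjusted p = 6.21e-17). CAV1 was lowest in the siRNA1 libraries, while its partner CAV2 was higher (0.95, adjusted p = 7.73e-11). ZEB1, a repressor of epithelial genes, fell from 81.0 ± 7.95 to 44.3 ± 1.91 CPM, and vimentin (VIM) did not pass (-0.05, adjusted p = 0.435).

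Of 13 luminal markers 9 had enough counts for a test. Of these FOXA1, CDH1 and MUC1 had means below 1 CPM in the controls and could pass the filter through the groups where they were higher, so no count or median over the list is given. KRT8, KRT18, KRT19 (0.28) and XBP1 (0.64) were higher, GATA3 was lower (-0.76) and EPCAM did not pass (0.04, adjusted p = 0.873). The summed level of the 9 tested markers was 1121 to 1292 CPM in control libraries, 2032 to 2348 CPM with siRNA1 and 1299.98 to 1336 CPM with siRNA2. Most of it came from KRT8 (464 ± 40.5 to 1066 ± 92.9 CPM) and KRT18 (500.5 ± 30.0 to 826 ± 38.9 CPM), the keratins of simple epithelia, which lie side by side and have many pseudogenes that may share reads. CDH1, the epithelial cadherin, rose from 0.741, 0.594 and 0.47 CPM to 2.28, 1.18 and 1.95 CPM, still a low level. FOXA1 and MUC1 were called higher at 1.59 ± 0.225 and 1.16 ± 0.674 CPM, and both rested on single libraries. MUC1 also lost its call with limma on log2(FPKM + 1) (adjusted p = 0.0577) and on log2(FPKM + 0.1) (adjusted p = 0.054). The call of FOXA1 was lost without control library 1 or 2 or siRNA1 library 3 (adjusted p = 0.0596 to 0.0623), and that of MUC1 without siRNA1 library 1 (adjusted p = 0.0546) or 3 (adjusted p = 0.1).

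Of 17 leukocyte markers 12 had too few counts for a test, with at most 8 counts in any library, and 5, among them CD3E and CD4, had 0 counts in all 9 libraries. PTPRC had at most 1 count. The 5 tested ones summed to 8.06 to 8.58 CPM in control libraries and 9.04 to 10.4 CPM with siRNA1, and TREM2 and CSF1R were called higher, TREM2 having passed the filter through its siRNA1 libraries. CSF1R had 3.92 ± 0.523 and 5.10 ± 0.2 CPM (0.37, adjusted p = 0.0457), a call that was lost with DESeq2 (adjusted p = 0.0894) and without any 1 of the libraries other than control library 1 (adjusted p = 0.0556 to 0.154). It was also lost with no filter (adjusted p = 0.11) and with the control and siRNA1 libraries alone (adjusted p = 0.0803). Of 10 endothelial markers 5 were tested and 4 of these were lower. ESAM made up most of their level (156 ± 12.99 to 84.5 ± 5.29 CPM), and ERG had 0 counts in every library. PECAM1 was at 5.49 ± 1.32 and 3.60 ± 0.794 CPM and lost its call without control library 1 (adjusted p = 0.0917).

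Genes of mitosis went apart between the siRNAs. Of 40 tested genes 12 were higher and 7 lower with siRNA1, with a median of 0.026 with siRNA1 and -0.493 with siRNA2, and all 12 were set apart. AURKA, a kinase of the spindle poles, was at 183, 186 and 210.2 CPM in the controls, 249.7, 275 and 276 CPM under siRNA1 and 154, 165 and 163 CPM with siRNA2 (0.47, adjusted p = 9.57e-07). HMMR, which binds spindle microtubules, was at 16.5, 14.3 and 16.9 CPM in the controls, 24.2, 29.5 and 23.8 CPM under siRNA1 and 12.6, 13.5 and 16.1 CPM with siRNA2 (0.70, adjusted p = 1.05e-05). In both genes the siRNA1 libraries lay above the others. BIRC5 (0.45), PTTG1 (0.30), CCNB2 (0.32) and CDK1 (0.30) were higher as well. TOP2A, a topoisomerase that untangles chromosomes and a holder of the word, fell from 403 ± 26.5 to 173 ± 16.2 CPM.

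Of 23 cytosolic aminoacyl tRNA synthetases and their scaffolds, which load amino acids on tRNAs, 9 were higher and 4 lower with siRNA1 (median 0.050, and -0.280 with siRNA2), and 9 were set apart higher. CARS1, the cysteine enzyme, was at 116, 119 and 124 CPM in the controls, 196, 187 and 191 CPM under siRNA1 and 149, 141 and 149.7 CPM with siRNA2 (0.68, adjusted p = 4.92e-10). AARS1 (0.46), YARS1 (0.42) and MARS1 (0.37) were higher too, and for AARS1 and YARS1 the siRNA2 mean lay below the control mean (164 against 199 CPM and 118 against 155 CPM). Of 26 amino acid transporters 13 were higher and 5 lower (median 0.220, and 0.554 with siRNA2). The higher ones include SLC6A19 and SLC1A7, at 0 to 2 counts in control libraries, which could pass the filter through groups where they were high. The count of higher members is therefore no evidence for the list. SLC1A3, a glutamate and aspartate transporter, rose from 8.91 ± 1.61 to 26.4 ± 3.38 CPM, and SLC7A11, the cystine importer, fell from 136, 108 and 94.7 CPM to 48.3, 55.8 and 47.2 CPM (-1.16, adjusted p = 2.31e-10). The siRNA1 libraries of SLC7A11 lay below all others, and siRNA2 was at 159 ± 6.46 CPM.

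In the lysosome list 22 of 56 genes were higher and 15 lower (median 0.108, and 0.449 with siRNA2), and 9 and 14 were set apart. When the list was split after its values were seen, 12 of 15 subunits of the proton pump that acidifies lysosomes were higher and 2 lower with siRNA1, with a median of 0.432 and, with siRNA2, of 0.392. Of the 41 other members 10 were higher and 13 lower, with a median of 0.002 and, with siRNA2, of 0.450. ATP6V1H (0.73) and ATP6V1G1 (0.71) were the pump subunits with the largest rise, and ATP6AP2 (-0.80) and ATP6V1C1 (-0.71) the ones that fell. GALC, which breaks down galactosylceramide, was at 37.1, 33.4 and 37.8 CPM in the controls, 9.75, 11.6 and 9.70 CPM under siRNA1 and 58.1, 56.9 and 61.6 CPM with siRNA2 (-1.80, adjusted p = 4.82e-14). The beta-glucuronidase GUSB was at 59.6, 67.8 and 73.0 CPM in the controls, 28.2, 23.3 and 26.9 CPM under siRNA1 and 60.7, 60.9 and 63.0 CPM with siRNA2 (-1.35, adjusted p = 1.77e-12), and both enzymes were lowest in the siRNA1 libraries. The protease CTSD was higher (341 ± 14.5 to 754 ± 68.3 CPM, and 573 ± 27.9 CPM with siRNA2).

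Of 27 genes of the NRF2 response and glutathione 14 were higher and 6 lower (median 0.305, and 0.195 with siRNA2). TXNRD1, a thioredoxin reductase, rose from 639 ± 33.5 to 1037 ± 64.7 CPM, and HMOX1, which degrades haem, from 8.28 ± 1.55 to 14.9 ± 1.63 CPM. PGD of the pentose phosphate pathway (-0.93) and FTL, the ferritin light chain (-0.77), fell, while FTH1, its heavy chain, rose (0.56). Of 35 genes of hypoxia and glycolysis 15 were higher and 8 lower (median 0.137, and 0.210 with siRNA2). EGLN3, an oxygen-sensing hydroxylase, was at 2.35, 1.78 and 2.47 CPM in the controls, 12.7, 11.96 and 13.6 CPM under siRNA1 and 3.58, 4.92 and 4.31 CPM with siRNA2 (2.52, adjusted p = 3.26e-12). ANGPTL4 (2.31) and the glucose transporter SLC2A3 (1.29) rose, and VEGFA (-1.01), HK2 (-1.29) and BNIP3L (-1.50) fell. With siRNA2 ANGPTL4 (2.36) and SLC2A3 (0.86) rose too, and BNIP3L moved the other way (0.83). ANGPTL4 had no called difference between the siRNAs.

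Of 38 interferon-stimulated genes 10 were higher and 8 lower (median 0.018, and 0.403 with siRNA2), shares near those over all genes. The antiviral genes OAS2 (20.9 ± 2.69 to 7.34 ± 0.322 CPM), IFIT1 (80.3 ± 13.002 to 34.9 ± 2.25 CPM) and IFIT2 (68.7 ± 4.84 to 32.4 ± 3.11 CPM) fell, and BST2 (0.87) and IFITM3 (0.64) rose. IFIT1 and IFIT2 fell with siRNA2 as well, by less, to 48.4 ± 2.17 and 46.7 ± 2.15 CPM, whereas OAS2 was at 20.8 ± 0.161 CPM with siRNA2. Of 26 p53 targets 10 were higher and 6 lower (median 0.097), with ZMAT3 (-1.17) and RPS27L (-0.71) among the lower ones and SESN1 (0.84) among the higher. Of 28 YAP and TEAD targets 9 were higher and 5 lower (median -0.039). TGFB2, the beta 2 ligand of the TGF-beta family, was at 20.1, 23.2 and 19.7 CPM in the controls, 73.6, 85.01 and 72.7 CPM under siRNA1 and 13.9, 12.997 and 16.4 CPM with siRNA2 (1.88, adjusted p = 1.98e-14). AMOTL2 (419 ± 23.9 to 1055 ± 3.14 CPM), NUAK2 (1.73) and ANKRD1 (1.00) rose, and AXL, a receptor kinase, fell to 105, 98.8 and 106 CPM from 998, 1041 and 973 CPM. AXL fell with siRNA2 too, to 273 ± 11.3 CPM, and was lower with siRNA1 than with siRNA2 (-1.40, adjusted p = 1.56e-16).

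Of 33 placental and trophoblast genes 11 had enough counts, and 7 of these were higher and 1 lower (median 1.079, and 0.942 with siRNA2). The 22 others had too few counts, and since several tested ones were low in the controls, this count and median are no evidence for the list. KISS1, which encodes kisspeptin, was at 56.6, 62.7 and 76.5 CPM in the controls, 194, 169 and 189.5 CPM under siRNA1 and 44.7, 43.9 and 42.6 CPM with siRNA2 (1.49, adjusted p = 1.53e-13), with siRNA1 above the other 6. PSG4 rose from 0.975 ± 0.265 to 4.94 ± 0.361 CPM and, like CGB5, belongs to a family of near-identical copies. CGB5 (0.259 ± 0.265 and 0.871 ± 0.471 CPM) was called higher (adjusted p = 0.0216), a call lost without control library 1 or 2 or siRNA1 library 3 (adjusted p = 0.0545 to 0.16).

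The remaining lists had calls in both directions. Of 21 AP-1 and immediate early factors 8 were higher and 7 lower (median 0.096), with JUND higher (0.86) and KLF2 lower (-0.89). Of 42 proteasome genes 12 were higher and 8 lower (median 0.037), and of 42 genes of RNA polymerase II and Mediator 8 were higher and 10 lower (median -0.029). CDK8, the kinase of Mediator, fell from 37.8 ± 0.888 to 19.2 ± 0.82 CPM and MED12, which activates it, from 51.5 ± 6.99 to 32.4 ± 1.19 CPM. Of 14 genes of the microRNA machinery 4 were higher and 6 lower (median -0.174, and -0.187 with siRNA2). Among them AGO2, the Argonaute that cuts, was lower (-0.33, adjusted p = 0.0045), DROSHA fell (-0.50) and AGO4 rose (0.66). DROSHA and AGO4 moved further in the same directions with siRNA2 (-0.74 and 1.32).

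**Figure D4:**
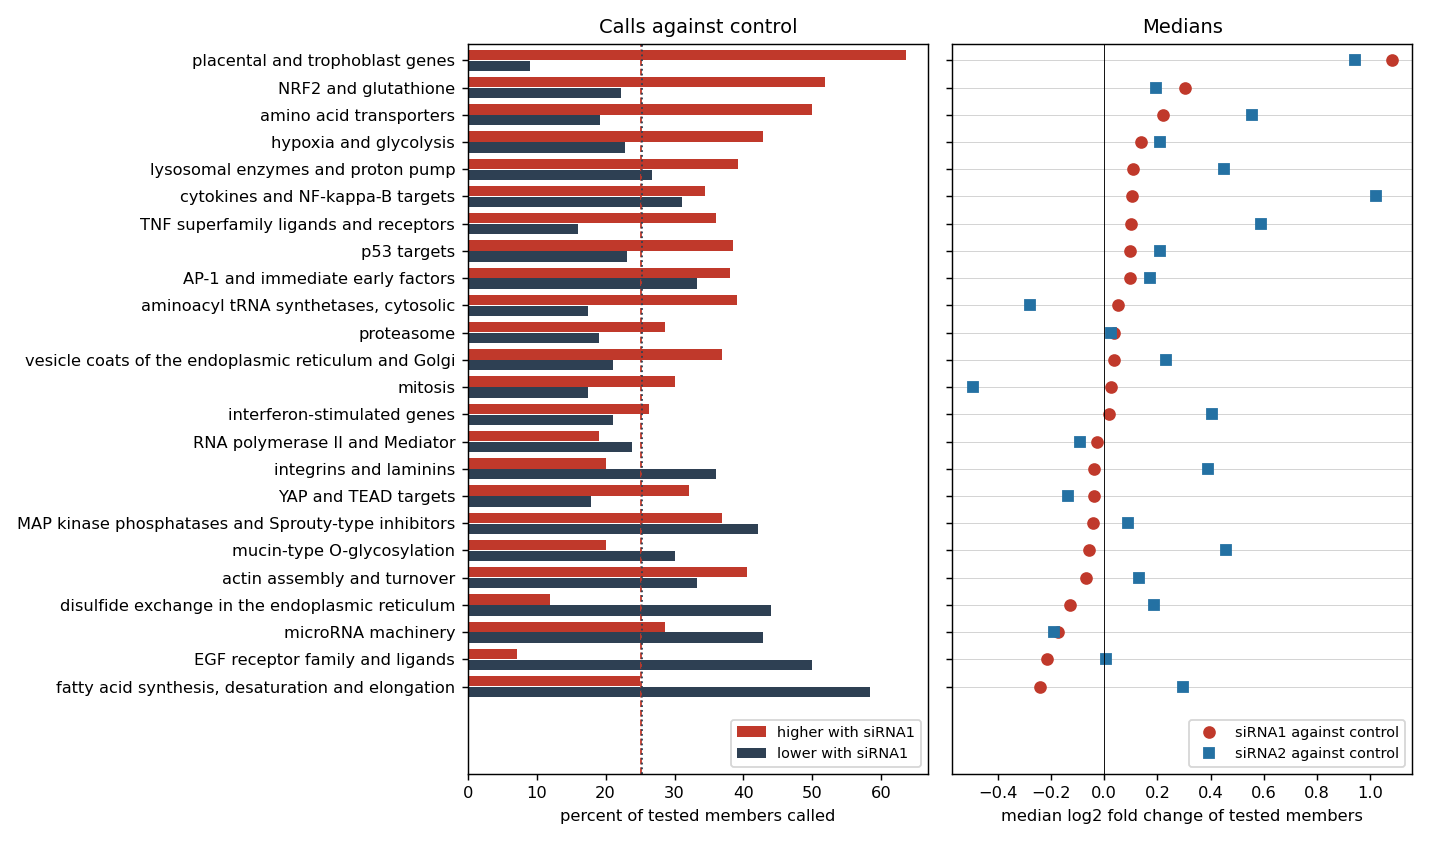
For the 24 lists other than the 4 of cell type markers, percent of tested genes called higher (red) or lower (dark) with siRNA1 against control (left, the dashed and dotted lines mark 25.1% and 25.3% over all tested genes), and the median log2 fold change (right) with siRNA1 (circles) and siRNA2 (squares). The EGF family (50% lower) and fatty acid genes (58.3% lower) have the lowest siRNA1 medians of these 24 lists, the cytokine list has the widest gap between the medians (0.106 and 1.020), and the siRNA2 medians of the mitosis (-0.493) and tRNA synthetase (-0.280) lists are the lowest.

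The share of genes called lower rose with the level and the length of the gene. It was 3.31% of genes below 1 CPM in control libraries, 12.3% at 1 to 5 CPM, 24.5% at 5 to 20 CPM, 34.0% at 20 to 100 CPM and 40.1% at 100 CPM or more, while the share called higher stayed between 21.7% and 28.1%. The control libraries set both the level and the fold change here, and depth limits calls at low levels. A gene below 1 CPM in the controls could pass the count filter through a group where it was high. The calls among genes below 1 CPM are therefore no result about level. Of the 858 genes higher by at least 2-fold, 418 were below 1 CPM in the controls. By exonic length in 4 equal groups, 15.0%, 24.3%, 28.1% and 33.8% of genes were lower from shortest to longest, and 24.1%, 26.9%, 26.4% and 23.0% were higher. Neither level nor the word was held equal across these groups. By 3′ UTR length in 4 equal groups, 19.4%, 23.8%, 25.2% and 24.2% of genes with neither the word nor its form were lower.

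**Figure D5:**
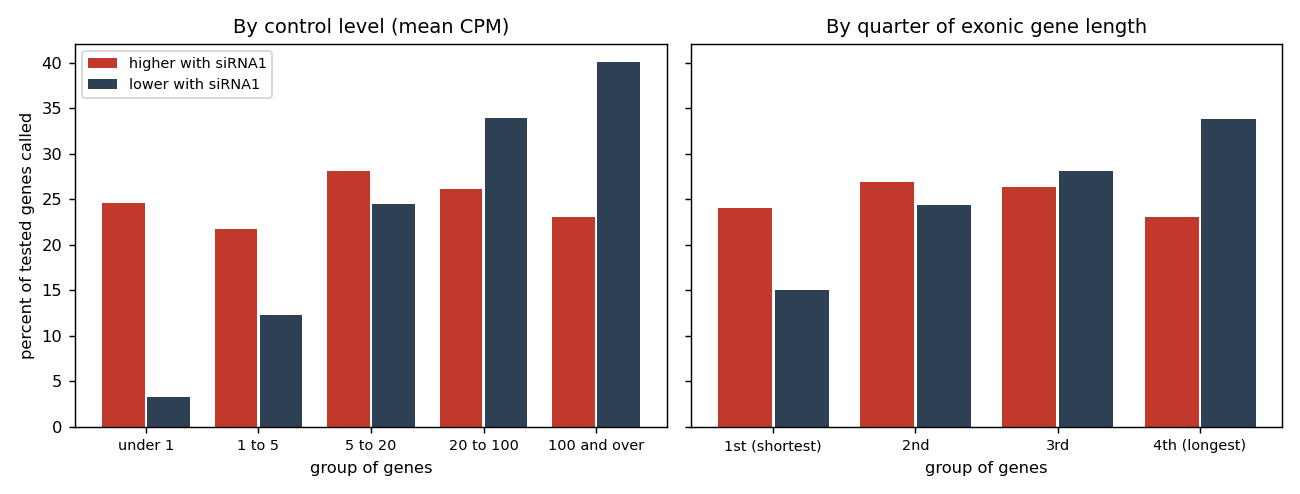
Percent of tested genes (y axis, from 0) called higher (red) or lower (dark) with siRNA1, by mean level in control libraries in CPM (left) and by exonic length in 4 equal groups (right). The share called lower climbs from 3.31% to 40.1% with level and from 15.0% to 33.8% with length. Genes below 1 CPM in the controls could pass the count filter through a group where they were high. Neither level nor the word was held equal across the groups by length.

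Kinds of transcript and chromosomes differed in the balance of calls. Of 12674 protein-coding genes 27.3% were higher and 28.0% lower, of 579 long intergenic noncoding RNAs 23.8% and 11.2%, and of 368 processed pseudogenes 6.52% and 17.4%. Chromosomes 19 (28.3% higher, 16.2% lower) and 16 (27.2% and 18.9%) had more genes higher than lower, and chromosome 18 (19.2% and 30.8%) the reverse. Of 16 mitochondrial genes 9 were higher, 0 lower and 0 changed by 2-fold. Whether counting took account of strand is not given in the sources, so where genes on both strands overlap, their reads cannot be told apart. Among the genes named with values, TXNDC5, FADS1, LCP1, AXL, SUMF2, NAA15, GRINA, STYXL2, CDH3, INHBA, FSTL1, TNC, NOTCH1, SMC1A, STAG2, HCFC1R1, FAM20C, SPRY4, PAWR, P3H2, NMT2, EGFR, TGFB2, RPN2, TPM4, TMX1, KDELR3, SEC24A, GCNT1, ITGB4, LAMA2, CAV2, ZEB1, KRT8, FOXA1, CSF1R, ESAM, CARS1, AARS1, YARS1, MARS1, SLC1A3, SLC7A11, CTSD, BNIP3L, IFIT1, IFIT2 and RPS27L overlap an annotated gene on the opposite strand. On the same strand, AMOTL2, MYO18A, KDELR2, ST6GALNAC2, ACSL4, ACACB, ZEB1, TOP2A, SLC1A3, CTSD, EGLN3 and IFIT2 overlap another annotated gene, and how such reads were shared out was not tested.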

How the data were processed

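RNA of MDA-MB-231 cells was measured by RNA-seq in 9 libraries, 3 for each of 3 groups taken from the treatment labels. The authors deposited 1 table of whole-number counts per gene and of FPKM values. Per the submitters' processing notes, Trimmomatic 0.30, HISAT2 2.0.1, HTSeq 0.6.1 and DESeq were used, with no role given, and hg19 is named. The coordinates in the table go with GRCh38 instead, since 99.98% of 58394 gene identifiers stand at the same place in GENCODE version 29. The deposited FPKM values were recomputed from the counts and exonic lengths to within 0.0051 for 100% of values.

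The deposited counts were filtered with filterByExpr, at a minimum count of 10 and a minimum total of 15, which left 15345 genes with 99.87% of the counts. They were TMM-scaled and tested with edgeR 4.0.16 in R 4.3.3 by the two-sided quasi-likelihood test, all 9 libraries and 3 groups in 1 fit, with Benjamini-Hochberg adjustment over all genes tested. The biological coefficient of variation was 0.0641. Libraries of a group differed by more than sampling noise, with a chi-square per gene of 2.16 to 8.42. Alternatives used DESeq2 1.42.0 and limma 3.58.1. The edgeR fit was also tested on simulated data.

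The members, the gene lists, the word in the 3′ UTRs and the rules were chosen with earlier results of these data known. Selected by rule were MILIP, the 12 highest and 12 lowest genes set apart with siRNA1 (ranked by the smaller of both fold changes, all 3 siRNA1 libraries beyond the other 6, at least 1 CPM where higher), up to 4 called genes of each list with the largest fold change, and the 6 lowest genes with at least 2 copies of the word. Not all of these are described. Those left out include RAI14, GNB5, GPR3 and JADE3, which fell, and TP53INP1, TRIM22, ITGB6, PSMD10 and TARBP2, which rose. All other genes named were chosen after their values were seen. Annotated UTRs and sequences were read from GENCODE version 29 and the GRCh38 genome, and for each gene the coding transcript with the longest 3′ UTR was searched for words present in at least 50 of them. Intervals and floors cover counting error only.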

Additional observations from a re-analysis of the deposited data

How the results depend on the processing

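The count of 7738 genes called with siRNA1, and its 4441 set apart, stayed within 1.5 times the reported value with DESeq2 (7312 called), other size factors, no filter or a stricter one, limma on FPKM with either pseudocount, and, for the calls, the control and siRNA1 libraries alone. A minimum of 2-fold against control left 1512 genes (858 higher, 654 lower) and, set apart, 1050 (532 and 518), fewer by construction. Leaving out genes that hold the word or its form left 2540 lower genes and 1328 set apart lower, also by construction. Without each library in turn, 6857 to 7668 genes were called (3290 to 3812 higher, 3441 to 4024 lower), 3873 to 4564 were set apart (1744 to 2118 higher, 2018 to 2454 lower), and the MILIP fold change was -3.22 to -2.41. With replicate number as a block, 7750 genes were called (3849 higher, 3901 lower), 4446 were set apart and MILIP was at -2.75. Libraries with the same number did not deviate together (r = -0.0508, 0.00647 and 0.0969 across genes), so the numbers were not taken as pairs.

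Over 198 of the genes selected or named and 3342 pairs of gene and alternative, 3296 kept their direction and side of the threshold, 44 lost a call, 2 gained one and 0 changed direction. The 9 genes that lost a call were ST6GALNAC2, LAMA2, CGB5, FOSB, CSF1R, PECAM1, MUC1, FOXA1 and ZNF470, and the cause was not tested. Depth limits calls below 1 CPM, where few genes can be called lower.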
